A study of Mus musculus with 27 samples.

Results

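The genes of MHC class II antigen presentation and of the B7 costimulatory ligands were followed in hepatic stellate cells (HSCs), pericytes of the liver sinusoid that store retinoid. The 10 genes are Cd74, H2-Aa, H2-Ab1, H2-Eb1, H2-DMa, H2-DMb1, H2-DMb2, Ciita, Cd80 and Cd86. They were chosen by name and not by a measured value, out of 53379 genes in the count table. All 10 were among the 18758 genes that passed the filter on low counts. RNA was sequenced in bulk from HSCs of male Balb/c mice, sorted for the ultraviolet signal of stored retinoid and collected without culture. Carbon tetrachloride (CCl4), a hepatocyte toxin, was given intraperitoneally in mineral oil at 0.5 µL per g of body weight. Healthy mice (n = 4) were 10 to 12 weeks old and were not injected, so the injected groups differed from them in the oil and the handling as well as in CCl4, and these cannot be told apart. Acute groups were mice of 10 to 12 weeks that received 1 injection, with 3 mice collected at 24 h, 4 at 72 h and 4 at 7 d. Chronic groups were mice of 8 to 10 weeks that received 8 injections over 4 weeks and were collected 24 h, 72 h or 14 d after the last one (n = 4 each). Their stated age differed from that of the healthy and acute mice, so age and repeated exposure cannot be told apart.

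MHC class II molecules are pairs of an alpha and a beta chain that display peptides from endosomes to CD4+ T cells. The invariant chain Cd74 accompanies new class II molecules to the endosome, H2-DM exchanges the remnant of the invariant chain for a peptide, and Cd80 and Cd86 on the same cell engage Cd28 on the T cell. Cd74 and the class II and H2-DM chain genes share a promoter module, the X and Y boxes bound by RFX and NF-Y, and a coactivator, Ciita, while Cd80, Cd86 and Ciita itself are not known for it. Dendritic cells, macrophages and B cells express the set constitutively, and interferon gamma can bring it about in other cells, HSCs in culture among them.

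By the GENCODE M21 annotation of GRCm38, 6 of the genes lie in the MHC on chromosome 17. H2-DMa (ENSMUSG00000037649, 34119541 to 34139101, plus strand), H2-DMb2 (ENSMUSG00000037548, 34143307 to 34151555, plus) and H2-DMb1 (ENSMUSG00000079547, 34153072 to 34160230, plus) are neighbours there. H2-Ab1 (ENSMUSG00000073421, 34257689 to 34269419, plus), H2-Aa (ENSMUSG00000036594, 34282744 to 34287823, minus) and H2-Eb1 (ENSMUSG00000060586, 34305867 to 34316674, plus) follow. On chromosome 16 lie Ciita (ENSMUSG00000022504, 10480059 to 10528418, plus), Cd86 (ENSMUSG00000022901, 36603869 to 36666081, minus) and Cd80 (ENSMUSG00000075122, 38455561 to 38496335, plus). Cd74 (ENSMUSG00000024610) lies on chromosome 18, 60803848 to 60812652, plus strand. The reads came from Balb/c mice, while the reference genome is of C57BL/6, which carries other alleles of these polymorphic genes.

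Some of the exons are shared with other genes. Of the 3448 exon bases of H2-DMa, 360 (10.4%) lie opposite exons of Brd2, which had 738 to 3742 counts per library, and the strand setting of the counting is not given in the sources used here. H2-DMb1 and H2-DMb2, 2 copies of the DM beta chain gene, share sequence: 15.8% of the 75-base words in the transcripts of H2-DMb1 occur in H2-DMb2, and 14.6% of those of H2-DMb2 in H2-DMb1. Values of these 3 genes are therefore uncertain to that extent. Ciita shares 329 of 9535 exon bases (3.45%) with Dexi on the opposite strand, and Cd74 shares 12 of 1679 with Mir5107, which had 1 to 5 counts in every library.

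The proximal promoters of H2-Aa, H2-Eb1, H2-DMb1 and H2-DMb2 are shown because these genes are known for this module and were all called higher than healthy at acute 7 d and in the 3 chronic groups. RefSeq windows of 300 bases (GRCm38.p6, 250 of them before the transcription start) were found for 6 of the 10 members, H2-Aa, H2-Eb1, H2-DMa, H2-DMb1, H2-DMb2 and Cd80. H2-DMa met the same conditions and had 2 windows, but it is not printed. The stretches below run 5′ to 3′ on the strand of the gene from position -150 to position -11 before the RefSeq start. That start is also where the gene given above begins for H2-Aa and H2-Eb1, but for H2-DMb1 and H2-DMb2 it lies inside the GENCODE gene, past its first base, so that all of the H2-DMb2 stretch and most of the H2-DMb1 stretch lie within the gene. The stretches are chr17:34287834-34287973 (minus) for H2-Aa, chr17:34305717-34305856 (plus) for H2-Eb1, chr17:34153041-34153180 (plus) for H2-DMb1 and chr17:34145099-34145238 (plus) for H2-DMb2. Capitals mark the letters searched, which were CTGATTGG for the Y box, ATTGG for the core of the NF-Y site that lies inside it, and AGCAAC for the core of the X box, on both strands.
H2-Aa: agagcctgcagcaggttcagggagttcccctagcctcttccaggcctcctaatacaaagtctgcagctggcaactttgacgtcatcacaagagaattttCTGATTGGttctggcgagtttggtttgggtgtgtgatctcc
H2-Eb1: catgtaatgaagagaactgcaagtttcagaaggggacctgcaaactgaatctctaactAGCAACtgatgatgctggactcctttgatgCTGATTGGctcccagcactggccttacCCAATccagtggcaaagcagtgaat
H2-DMb1: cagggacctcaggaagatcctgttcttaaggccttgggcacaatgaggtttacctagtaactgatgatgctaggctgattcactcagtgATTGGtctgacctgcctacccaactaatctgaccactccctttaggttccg
H2-DMb2: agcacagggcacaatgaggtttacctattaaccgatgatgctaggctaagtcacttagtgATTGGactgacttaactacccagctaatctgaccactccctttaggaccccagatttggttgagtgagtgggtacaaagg

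CTGATTGG stood at position -51 in H2-Aa and at -62 in H2-Eb1, and 4.1% of all 32851 windows of this length held it. AGCAAC stood at -92 in H2-Eb1 and in 14.8% of all windows. H2-DMb1 and H2-DMb2 held ATTGG alone, at -61 and -90, and 37.4% of all windows held it. H2-DMa held it at -198 in the second of its windows and had none of the letters searched in the first. None of these letters was in the window of Cd80. A match is a description of the letters and says nothing of binding in these cells.

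Total counts per library ranged from 6.31 M to 13.1 M. The 8 libraries under 9 M were the chronic 14 d group as a whole and replicates 1 and 2 in each of chronic 24 h and chronic 72 h, and comparisons of these groups were repeated with depth class as a term and, where a group held both classes, with the libraries over 9 M alone. The variance between replicates of a group was 15.5 to 82.1 times that of counting alone, so none was counted as a copy of another. Each is described by the study as an individual experiment, and p-values measure the spread between these libraries. The stellate markers were at high levels throughout: Lrat, the enzyme of retinyl ester storage, had 665 to 2630 CPM (normalised read counts on TMM-scaled library sizes), and 10 stellate markers summed to between 14869 and 46036 CPM. Leukocyte markers were present too and moved with several results, as described below.

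Compared per length of exon, merged over the transcripts of a gene, the class II chains had the highest means of the 10 genes except at chronic 72 h. There Cd74 had a mean of 69.7 CPM per kb, above H2-Aa at 32.9. In healthy HSCs the mean level was 9.19 CPM per kb of exon for H2-Ab1, 7.85 for H2-Eb1, 4.63 for H2-Aa and 3.23 for Cd74. Cd86 (1.03 CPM per kb), H2-DMa (0.955), H2-DMb2 (0.900) and H2-DMb1 (0.764) lay lower, and Ciita (0.194) and Cd80 (0.0263) lowest. At acute 7 d, where most members peaked, the means were 110 ± 38.7 CPM per kb (SD, n = 4) for H2-Ab1, 67.7 ± 19.0 for H2-Eb1, 53.5 ± 15.4 for H2-Aa and 49.6 ± 40.4 for Cd74. Cd80 was again lowest at 0.546 CPM per kb.

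H2-Aa, the alpha chain of the I-A molecule, had 12.4, 9.95, 23.4 and 24.5 CPM in the 4 healthy libraries. The 3 libraries of acute 24 h had 6.94, 6.94 and 2.37 CPM and the 4 of acute 72 h 12.6, 10.1, 14.1 and 15.7. At acute 7 d the libraries had 136, 188, 213 and 277 CPM. Acute 24 h thus lay below every healthy library, acute 72 h within the healthy range, and acute 7 d above every healthy library with no overlap. After repeated injury H2-Aa had 251, 84.3, 39.6 and 61.4 CPM at chronic 24 h, 142, 214, 47.5 and 95.7 at chronic 72 h, and 181, 185, 117 and 106 at chronic 14 d. All 12 chronic libraries were above all healthy ones, and replicate 1 stood far above the others at chronic 24 h. The group means, from the top, were 203 ± 58.4 CPM at acute 7 d, 147 ± 41.8 at chronic 14 d, 125 ± 70.8 at chronic 72 h, 109 ± 96.6 at chronic 24 h, 17.6 ± 7.47 in healthy, 13.1 ± 2.38 at acute 72 h (SD, n = 4 each) and 5.42 ± 2.64 at acute 24 h (SD, n = 3). The upper 4 groups overlapped one another, healthy overlapped acute 72 h, and acute 72 h did not overlap acute 24 h. Without its replicate 1 the mean of chronic 24 h was 61.7 CPM. Groups without overlap in either direction were common among all genes tested: against healthy they made up 39.8% of genes at acute 24 h, 23.6% at acute 72 h, 24.6% at acute 7 d, 26.4% at chronic 24 h, 21.1% at chronic 72 h and 13.3% at chronic 14 d.

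H2-Ab1, the beta chain of I-A, followed the same order at the low end. It had 15.8, 17.3, 34.2 and 27.1 CPM in healthy, 10.2, 14.6 and 3.34 at acute 24 h, 23.7, 17.7, 24.3 and 17.0 at acute 72 h, and 179, 231, 319 and 405 at acute 7 d. At chronic 24 h it had 347, 148, 28.8 and 83.0 CPM, at chronic 72 h 335, 481, 67.9 and 172, and at chronic 14 d 154, 180, 91.9 and 33.5. Chronic 24 h replicate 3 and chronic 14 d replicate 4 lay within the healthy range, and every other library of acute 7 d and of the chronic groups lay above it.

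H2-Eb1, the beta chain of the I-E molecule, had 13.4, 11.0, 16.2 and 20.4 CPM in healthy, 4.45, 6.86 and 3.25 at acute 24 h, 10.5, 12.0, 14.4 and 13.5 at acute 72 h, and 92.4, 115, 141 and 179 at acute 7 d. In the chronic groups it had 183, 77.3, 26.2 and 42.4 CPM at 24 h, 167, 265, 32.8 and 78.2 at 72 h, and 125, 139, 91.2 and 84.8 at 14 d. Every library of acute 7 d and of the chronic groups was above every healthy one, and every acute 24 h library below. Its partner, the I-E alpha chain gene, is a pseudogene in C57BL/6 and is annotated as H2-Ea-ps. It was added after its values were seen. H2-Ea-ps had 2 to 1622 counts in the 27 libraries, with a mean of 8.30 CPM in healthy, 2.02 at acute 24 h and 77.4 at acute 7 d.

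**Figure D1:**
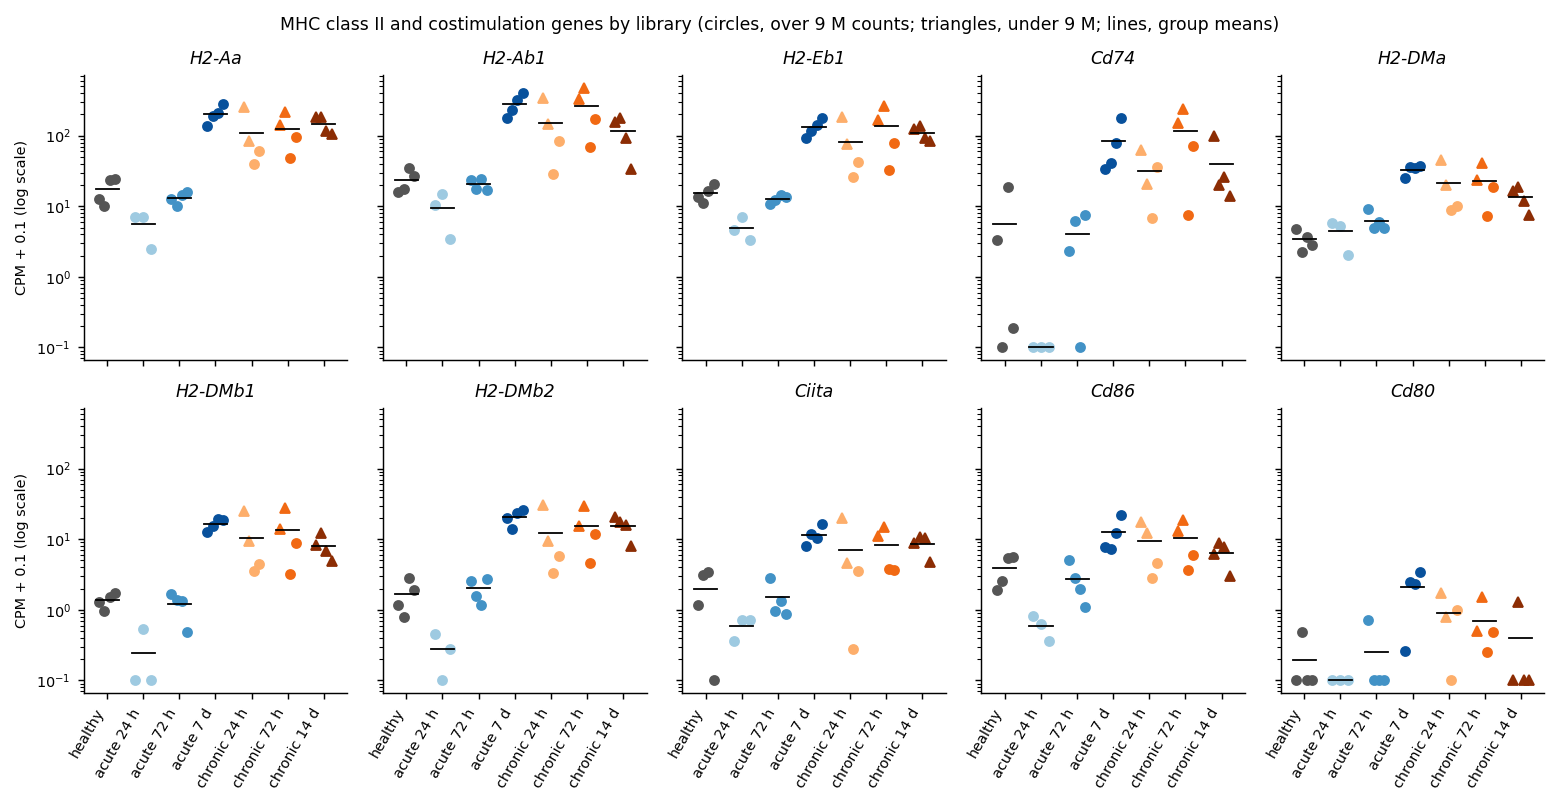
CPM + 0.1 of each of the 10 genes in every library on a log10 axis, by group, with circles for libraries over 9 M counts, triangles for those under 9 M and lines at the group means. Acute 24 h libraries sit lowest for most genes (H2-Aa 2.37 to 6.94 CPM) and acute 7 d libraries highest or near it (H2-Aa 136 to 277 CPM).

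The earliest comparison, acute 24 h with healthy, concerns the response to a first injury. A gene was called here and below at a Benjamini-Hochberg adjusted p below 0.05 over all 18758 genes in the quasi-likelihood test of edgeR and a change above 2-fold. Of the 10 members 6 were called lower (Cd74, H2-Aa, H2-Eb1, H2-DMb1, H2-DMb2 and Cd86) where 12.5% of all genes tested were lower and 9.41% higher. The median log2 fold change of the members was -2.38, against -0.12 over all genes. H2-Aa fell by 1.70 on the log2 scale (SE 0.56, adjusted p 0.0222, edgeR) and H2-Eb1 by 1.65 (SE 0.58, adjusted p 0.0312, edgeR). H2-Ab1 stood at -1.33 (SE 0.70, adjusted p 0.155, edgeR), although no library of acute 24 h reached the healthy range. These calls rested on few libraries. Without acute 24 h replicate 3 only 2 members were called, with H2-Aa at -1.34 and H2-Eb1 at -1.43, and without acute 24 h replicate 1 or healthy replicate 3 there were 3. H2-Aa was also lost without healthy replicate 3 (-1.53) or 4 (-1.49), and H2-Eb1 without acute 24 h replicate 1 (-1.59) or healthy replicate 3 (-1.62) or 4 (-1.48). Many markers of other cells were lower in the same comparison. Of 7 sinusoidal endothelial markers 5 were lower and 1 higher (median -2.01), and 5 of 6 hepatocyte markers were lower (median -3.11). Of 5 neutrophil markers 4 were higher.

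At 72 h after the single injection none of the 10 genes was called (edgeR), none had an unadjusted p below 0.05, and DESeq2 called none, where 8.23% of all genes were higher and 4.33% lower. The members' log2 fold changes against healthy ran from -0.52 (SE 0.60) for Cd86 to 0.90 (SE 0.50, adjusted p 0.214, edgeR) for H2-DMa, with a median of -0.24. H2-Aa stood at -0.42 (SE 0.49) and H2-Eb1 at -0.28 (SE 0.50). For H2-DMa alone of the 10 members the acute 72 h libraries did not overlap the healthy ones, which was so for 23.6% of all genes.

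At 7 d after the single injection all 10 members were called higher than healthy, where 9.23% of all genes were higher and 5.64% lower. Their median log2 fold change was 3.56, against 0.01 over all genes. H2-Aa rose by 3.53 (SE 0.53, adjusted p 3.76e-05, edgeR), H2-Ab1 by 3.59 (SE 0.68, adjusted p 0.000511, edgeR) and H2-Eb1 by 3.11 (SE 0.54, adjusted p 0.000187, edgeR). Against acute 24 h, the same 10 were called higher, where 17.8% of all genes were higher and 9.24% lower. H2-Aa rose by 5.23 between these times (SE 0.65, adjusted p 1.86e-06, edgeR), H2-Ab1 by 4.91 (SE 0.82, adjusted p 6.43e-05, edgeR) and H2-Eb1 by 4.76 (SE 0.66, adjusted p 6.85e-06, edgeR). The calls against healthy of the 3 chains, H2-DMa, H2-DMb1 and H2-DMb2 held without any 1 library, while 4 calls were lost without healthy replicate 1 or without acute 7 d replicate 4 (6 remained), namely those of Cd74, Ciita, Cd80 and Cd86.

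After repeated injury 6 members were called higher than healthy at chronic 24 h, where 11.2% of all genes were higher and 8.11% lower. These were the 3 chains and the 3 genes of H2-DM. The median log2 fold change of the members was 2.64, against -0.03 over all genes. H2-Aa rose by 2.63 (SE 0.51, adjusted p 0.000362, edgeR), H2-Ab1 by 2.68 (SE 0.65, adjusted p 0.00311, edgeR) and H2-Eb1 by 2.42 (SE 0.52, adjusted p 0.00106, edgeR). Without chronic 24 h replicate 1 these were 1.81, 1.87 and 1.67, and all 6 genes were still called.

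At chronic 72 h the same 6 genes and Cd74 were called higher than healthy, where 7.88% of all genes were higher and 4.2% lower. H2-Aa rose by 2.83 (SE 0.51, adjusted p 0.000362, edgeR), H2-Ab1 by 3.48 (SE 0.68, adjusted p 0.000733, edgeR) and H2-Eb1 by 3.15 (SE 0.54, adjusted p 0.000205, edgeR). The median over the members was 2.99, against 0.00 over all genes.

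At 14 d after the last injection the 3 chains and the 3 H2-DM genes were called higher than healthy, where 4.55% of all genes were higher and 1.17% lower (5.86% and 0.565% on library size alone). The median over the members was 2.45, against -0.03 over all genes. H2-Aa rose by 3.07 (SE 0.52, adjusted p 0.000594, edgeR) and H2-Eb1 by 2.85 (SE 0.53, adjusted p 0.00138, edgeR). H2-Ab1 rose by 2.28 (SE 0.64, adjusted p 0.0286, edgeR), a call that was lost without healthy replicate 1 (2.13) or 2 (2.16) or chronic 14 d replicate 1 (2.11) or 2 (2.02). Without healthy replicate 2 the calls of H2-DMa (1.89) and H2-DMb1 (2.48) were lost too, which left 3, and H2-DMb1 was lost without chronic 14 d replicate 2 (2.38). All chronic 14 d libraries were under 9 M counts and all healthy ones over, so the group and the depth class cannot be told apart here. When depth class was added to the model, estimated from the chronic groups that hold both classes, no member passed the threshold (edgeR), 3 had an unadjusted p below 0.05, and the log2 fold change was 1.54 for H2-Aa (adjusted p 0.0933, edgeR), 0.33 for H2-Ab1 and 0.91 for H2-Eb1.

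Chronic 14 d against chronic 24 h asks what returned after the injections stopped. None of the 10 genes was called (edgeR), none had an unadjusted p below 0.05, and DESeq2 called none, where 6.65% of all genes were higher and 6.11% lower (8.75% and 4.26% on library size alone). Log2 fold changes ran from -1.36 (SE 1.43) for Cd80 to 0.44 (SE 0.48, adjusted p 0.566, edgeR) for H2-Aa. The spread of chronic 24 h was wide enough for 1 library to alter this: without chronic 24 h replicate 1, H2-Aa was called higher at 14 d (1.26, adjusted p 0.0392, edgeR). H2-Eb1 stood at 0.42 (SE 0.49) and H2-Ab1 at -0.40 (SE 0.61) in the full comparison.

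**Figure D2:**
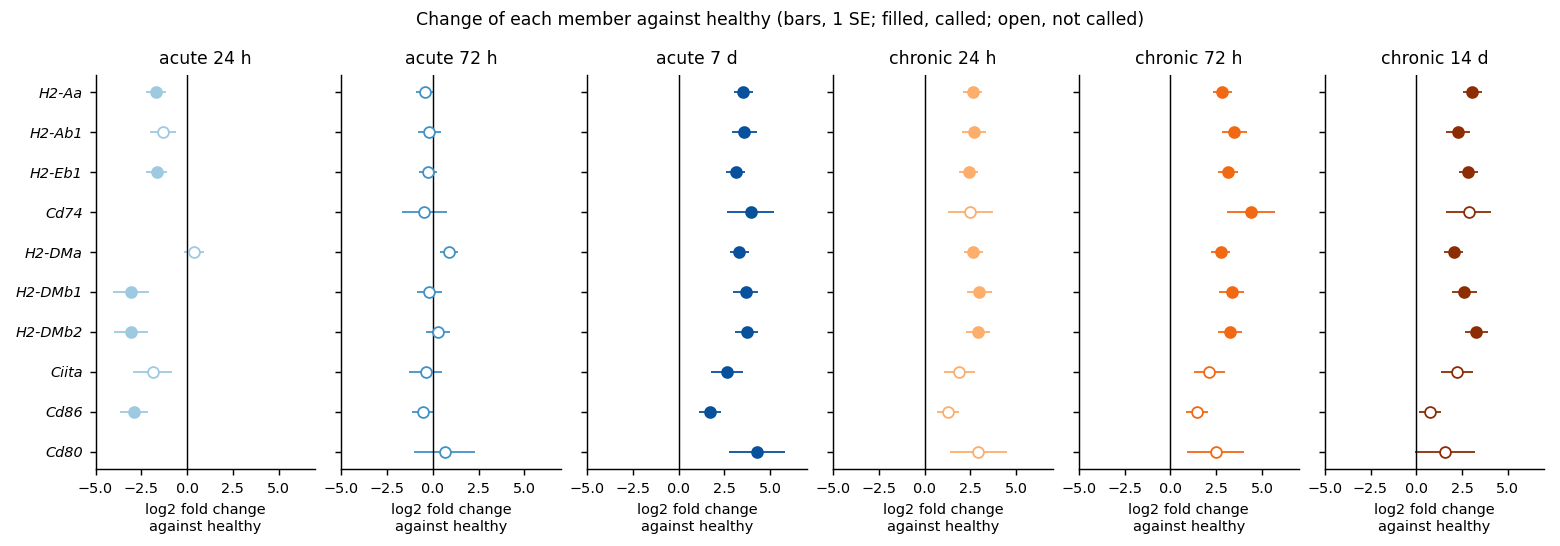
Log2 fold change against healthy of each gene (± 1 SE) in the 6 injured groups, filled where called. Cd74 and Cd80 are left out of the acute 24 h panel because they had no count there. The points lie mostly below 0 at acute 24 h, around 0 at acute 72 h and above 0 at acute 7 d and in the chronic groups, with H2-Aa at -1.70, -0.42 and 3.53 in the acute groups.

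The first and the repeated injury were compared at matched times, which tests the difference of their effects against the same healthy libraries. At 24 h, 9 of the 10 members were higher after the eighth injection than after the first, where 10.9% of all genes were higher and 3.05% lower. H2-Aa differed by 4.33 on the log2 scale (SE 0.63, adjusted p 3.29e-05, edgeR), H2-Ab1 by 4.01 (SE 0.79, adjusted p 0.000791, edgeR) and H2-Eb1 by 4.07 (SE 0.64, adjusted p 8.06e-05, edgeR). The groups did not overlap in these 3 genes, as in 33.2% of all genes. Replicates 1 and 2 of chronic 24 h but none of acute 24 h were under 9 M counts. With depth class as a term, or with the libraries over 9 M alone, 7 members were called in place of 9, the losses being H2-DMa (1.25 and 1.07) and Ciita (2.11 and 1.83), and H2-Aa stood at 3.33 and 3.18. The members' median was 4.24, or 4.12 with genes without a count at acute 24 h set to their bound, against 0.01 over all genes. At 72 h, 8 members were higher in the chronic group, where 5.11% of all genes were higher and 4.01% lower. H2-Aa differed by 3.24 (SE 0.52, adjusted p 0.000169, edgeR), H2-Ab1 by 3.67 (SE 0.68, adjusted p 0.000756, edgeR) and H2-Eb1 by 3.42 (SE 0.54, adjusted p 0.000152, edgeR). With depth class as a term, or with the libraries over 9 M alone, 5 were called, the losses being Cd74 (3.68 and 3.35), H2-DMa (0.95 and 1.12) and Cd86 (0.77 and 0.88), and H2-Aa stood at 2.34 and 2.49. The members left out of the counts of 9 and 8 were Cd80 at 24 h and Cd80 and Ciita at 72 h.

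Cd74, the invariant chain, varied far more between replicates than the chains it accompanies. Healthy libraries had 3.26, 0, 18.4 and 0.0867 CPM, which were 36, 0, 218 and 1 counts. No acute 24 h library had a count of Cd74, although the same libraries had 2.37 to 6.94 CPM of H2-Aa. The sources used here do not give the step from the StringTie assembly to counts, and its part in the zeros of Cd74 was not tested. At acute 72 h it had 2.21, 6.15, 0 and 7.51 CPM. Values up to 72 h were thus 0 or low in most libraries, with healthy replicate 3 far above the rest. At acute 7 d Cd74 had 33.2, 40.9, 78.2 and 181 CPM, at chronic 24 h 61.6, 20.5, 6.67 and 35.7, at chronic 72 h 152, 238, 7.32 and 71.2, and at chronic 14 d 100, 19.6, 25.7 and 14.1. Acute 7 d did not overlap healthy, while each chronic group did. Single libraries carried these means: that of healthy was 5.43 CPM and 1.12 without replicate 3, that of acute 7 d 83.2 and 50.7 without replicate 4, that of chronic 72 h 117 and 76.7 without replicate 2, and that of chronic 14 d 39.9 and 19.8 without replicate 1. The chronic 24 h mean was 31.1 CPM.

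Against healthy, Cd74 was called at acute 7 d (log2 fold change 3.93, SE 1.29, adjusted p 0.0318, edgeR) and at chronic 72 h (4.41, SE 1.32, adjusted p 0.0219, edgeR). The acute 7 d call was lost without healthy replicate 1 (3.74), 2 (3.52) or 4 (3.52) or acute 7 d replicate 4 (3.21), and the chronic 72 h call without healthy replicate 1 (4.23) or 2 (4.01) or chronic 72 h replicate 2 (3.84). At chronic 24 h (2.50, SE 1.23, adjusted p 0.132, edgeR) and chronic 14 d (2.87, SE 1.24, adjusted p 0.166, edgeR) Cd74 was not called, and without healthy replicate 3 it was (4.77 and 5.14). At acute 24 h it was at least 20.6-fold lower than healthy when 3 counts per library stood in for 0 (adjusted p 0.0273, edgeR). That bound was 4.24-fold without healthy replicate 3, and the call was lost without that library (adjusted p 0.147) or without any 1 of the acute 24 h libraries (adjusted p 0.0739 to 0.0775). By the same floor Cd74 was at least 316-fold higher at acute 7 d than at acute 24 h, or 193-fold without acute 7 d replicate 4. It was at least 118-fold higher at chronic 24 h than at acute 24 h, or 79.4-fold without chronic 24 h replicate 1. These 3 bounds rest on the counts of 0 at acute 24 h. Between chronic 72 h and acute 72 h the log2 fold change was 4.87 (SE 1.35, adjusted p 0.0186, edgeR), and the call was lost without acute 72 h replicate 1 (4.68) or with depth class as a term (3.68).

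H2-DMa, the alpha chain of the peptide editor H2-DM, was the 1 member with a positive log2 fold change at acute 24 h. It had 4.62, 2.15, 3.62 and 2.77 CPM in healthy, 5.79, 5.21 and 1.93 at acute 24 h, 9.03, 4.85, 5.85 and 4.88 at acute 72 h, and 24.8, 35.7, 34.9 and 36.6 at acute 7 d. Its log2 fold change at acute 24 h was 0.39 (SE 0.54, adjusted p 0.631, edgeR), and it rose by 3.32 at acute 7 d (SE 0.53, adjusted p 6.96e-05, edgeR). Chronic 24 h libraries had 45.6, 19.8, 8.77 and 9.84 CPM, chronic 72 h libraries 23.2, 40.4, 7.08 and 18.8, and chronic 14 d libraries 16.6, 18.8, 11.8 and 7.35. None of these 12 overlapped healthy, as in 26.4%, 21.1% and 13.3% of all genes at chronic 24 h, 72 h and 14 d. The rises were 2.66, 2.75 and 2.05 (adjusted p 0.000367, 0.000490 and 0.0126, edgeR). Without chronic 24 h replicate 1 the first was 1.95 and the chronic 24 h mean 12.8 CPM in place of 21.0. With depth class as a term the rise at 14 d was 0.50 and not called (adjusted p 0.640, edgeR). Between chronic and acute injury H2-DMa differed by 2.27 at 24 h (SE 0.56, adjusted p 0.00527, edgeR) and by 1.86 at 72 h (SE 0.49, adjusted p 0.0129, edgeR), the latter lost without chronic 72 h replicate 2 (1.45). Neither was called with depth class as a term (1.25 and 0.95). The part that reads of Brd2 have in these values was not tested.

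The DM beta chain genes were close to absent 24 h after the first injury. Counts in healthy were low too, at 9 to 19 per library for H2-DMb1 and 7 to 32 for H2-DMb2. H2-DMb1 had 1.18, 0.878, 1.43 and 1.65 CPM in healthy and 0, 0.434 and 0 at acute 24 h, and H2-DMb2 had 1.09, 0.683, 2.70 and 1.82 in healthy and 0.356, 0 and 0.176 at acute 24 h. No acute 24 h library reached the healthy range of either gene. H2-DMb1 fell by 3.04 (SE 0.98, adjusted p 0.0187, edgeR), a call lost without acute 24 h replicate 1 (-2.50) or 3 (-2.50), and H2-DMb2 fell by 3.08 (SE 0.93, adjusted p 0.0125, edgeR), lost without acute 24 h replicate 2 (-2.52). At acute 72 h H2-DMb1 had 1.59, 1.30, 1.22 and 0.387 CPM and H2-DMb2 2.48, 1.47, 1.06 and 2.63, and neither was called against healthy. At acute 7 d H2-DMb1 had 12.5, 15.1, 19.6 and 18.5 CPM and H2-DMb2 20.1, 13.9, 23.5 and 25.5. Both rose against healthy, by 3.66 (SE 0.68, adjusted p 0.000411, edgeR) and 3.70 (SE 0.65, adjusted p 0.000235, edgeR).

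In the chronic groups H2-DMb1 had 24.7, 9.33, 3.42 and 4.32 CPM at 24 h, 13.7, 28.0, 3.11 and 8.62 at 72 h, and 8.24, 12.2, 6.61 and 4.85 at 14 d. H2-DMb2 had 30.4, 9.33, 3.24 and 5.60 CPM at 24 h, 15.2, 29.1, 4.44 and 11.7 at 72 h, and 20.7, 17.6, 15.8 and 7.93 at 14 d. All were above the healthy libraries. The rises at 24 h, 72 h and 14 d were 2.99, 3.35 and 2.62 for H2-DMb1 (adjusted p 0.00148, 0.00102 and 0.0149, edgeR) and 2.92, 3.24 and 3.28 for H2-DMb2 (adjusted p 0.00124, 0.000895 and 0.00226, edgeR). Without chronic 24 h replicate 1 the rises at 24 h were 2.12 and 1.92. With depth class as a term those at 14 d were 0.64 and 1.48 and not called (adjusted p 0.633 and 0.214, edgeR). With the counts of H2-DMb1 and H2-DMb2 added together, since they share sequence, the log2 fold changes were 2.96, 3.30 and 3.03 in the chronic groups and -3.11, 0.08 and 3.69 in the acute groups, with the same calls as the genes alone.

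Ciita, the class II coactivator, stayed at low counts. It had 1.09, 3.02, 3.29 and 0 CPM in healthy, 0.267, 0.608 and 0.615 at acute 24 h, 2.75, 0.866, 1.22 and 0.774 at acute 72 h, and 8.01, 11.6, 10.2 and 16.1 at acute 7 d. Only acute 7 d passed the test against healthy (log2 fold change 2.63, SE 0.87, adjusted p 0.0306, edgeR), and not without healthy replicate 1 (2.44) or acute 7 d replicate 4 (2.42). Chronic libraries had 19.9, 4.53, 0.175 and 3.44 CPM at 24 h, 10.9, 14.6, 3.66 and 3.53 at 72 h, and 8.64, 10.7, 10.2 and 4.70 at 14 d. At 72 h and 14 d none of them overlapped healthy, at log2 fold changes of 2.12 (SE 0.86, adjusted p 0.0864, edgeR) and 2.21 (SE 0.86, adjusted p 0.118, edgeR). At chronic 24 h the value was 1.90 (SE 0.86, adjusted p 0.10, edgeR), and Ciita was called without chronic 24 h replicate 3 (2.31) and stood at 0.53 without replicate 1. DESeq2 called Ciita at chronic 72 h (2.15, adjusted p 0.0452). The difference between chronic and acute injury was 3.76 at 24 h (SE 1.09, adjusted p 0.0157, edgeR), lost without acute 24 h replicate 1 (3.47) or 2 (3.93) or chronic 24 h replicate 1 (2.40), or with depth class as a term (2.11). At 72 h it was 2.53 (SE 0.88, adjusted p 0.0551, edgeR), called without chronic 72 h replicate 3 (2.83) or 4 (2.78).

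Cd86, the costimulatory ligand that antigen-presenting cells carry at rest, fell after the first injury. It had 1.81, 2.44, 5.39 and 5.46 CPM in healthy and 0.712, 0.521 and 0.263 at acute 24 h, with no overlap, a fall by 2.90 (SE 0.78, adjusted p 0.00545, edgeR) that was called without any 1 library. At acute 72 h it had 5.05, 2.68, 1.87 and 1.01 CPM and at acute 7 d 7.76, 7.22, 12.3 and 22.3. The acute 7 d libraries lay above the healthy ones (1.71, SE 0.60, adjusted p 0.0403, edgeR), a call lost without healthy replicate 1 (1.48) or 2 (1.55) or acute 7 d replicate 3 (1.71) or 4 (1.26). Chronic libraries had 17.4, 12.2, 2.72 and 4.56 CPM at 24 h, 13.2, 18.7, 3.58 and 5.88 at 72 h, and 6.08, 8.68, 7.58 and 2.94 at 14 d. Each chronic group overlapped healthy, and none was called, with 1.27 (SE 0.60, adjusted p 0.113, edgeR), 1.44 (SE 0.60, adjusted p 0.0944, edgeR) and 0.74 (SE 0.60, adjusted p 0.500, edgeR). Without chronic 72 h replicate 3 the call at 72 h was made (1.77). Against the matched acute group Cd86 was higher by 4.16 at chronic 24 h (SE 0.80, adjusted p 0.000582, edgeR) and by 1.95 at chronic 72 h (SE 0.61, adjusted p 0.0324, edgeR). The latter was lost without any 1 of acute 72 h replicates 2, 3 and 4 (1.72 to 1.96) or of replicates 1 (1.81) and 2 (1.54) of the chronic group, and with depth class as a term (0.77).

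Cd80, the second ligand of Cd28, was at the edge of detection. It had a count in 14 of the 27 libraries, in 1 of the healthy ones (0.390 CPM), none of acute 24 h and 1 of acute 72 h (0.620 CPM). At acute 7 d every library had a count, at 0.162, 2.38, 2.25 and 3.30 CPM, and replicate 1 lay below the highest healthy library. Cd80 was called there (log2 fold change 4.28, SE 1.54, adjusted p 0.0477, edgeR), but not without any 1 of healthy replicates 1, 3 and 4 (3.89 to 3.90) or acute 7 d replicates 2, 3 and 4 (3.94 to 4.23), nor by DESeq2 (adjusted p 0.0587). Chronic libraries had 1.65, 0.686, 0 and 0.880 CPM at 24 h, 0.400, 1.43, 0.156 and 0.392 at 72 h, and 1.18 in 1 library and 0 in the others at 14 d. None of these groups was called against healthy (2.93, 2.48 and 1.57, adjusted p 0.161, 0.286 and 0.624, edgeR). By the floor of 3 counts, Cd80 was at least 7.67-fold higher at acute 7 d than at acute 24 h. At chronic 24 h it was at least 3.05-fold higher than at acute 24 h, or 1.98-fold without chronic 24 h replicate 1, and not called (adjusted p 0.0667, edgeR), though it was by DESeq2 (adjusted p 0.0383) and without chronic 24 h replicate 3 (adjusted p 0.0451, edgeR).

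The balance between members was not the same in every group, and the ratios below are ratios of CPM, chosen after the values were seen and given without a test. H2-Ab1 over H2-Aa had a mean of 1.39 ± 0.270 in healthy, 1.66 ± 0.382 at acute 24 h (SD, n = 3), 1.61 ± 0.360 at acute 72 h, 1.38 ± 0.127 at acute 7 d, 1.30 ± 0.426 at chronic 24 h, 1.96 ± 0.427 at chronic 72 h and 0.731 ± 0.287 at chronic 14 d (SD, n = 4 each otherwise). The libraries ran from 0.317 to 0.973 at chronic 14 d, which overlapped chronic 24 h (0.727 to 1.75) and lay below the other groups, and from 1.43 to 2.35 at chronic 72 h, within reach of acute 24 h (1.41 to 2.10). These ratios are not per length of exon and do not say which of the 2 genes was at the higher level. H2-Eb1 over H2-Aa stayed between 0.613 and 1.37 in all 27 libraries. Cd74 over H2-Aa ran from 0 to 1.11, with means of 0.263 in healthy, 0 at acute 24 h, 0.371 at acute 7 d and 0.769 at chronic 72 h. H2-DMb2 over H2-DMb1 had a mean of 1.99 ± 0.532 at chronic 14 d and 1.28 ± 0.290 at acute 7 d (SD, n = 4 each).

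**Figure D3:**
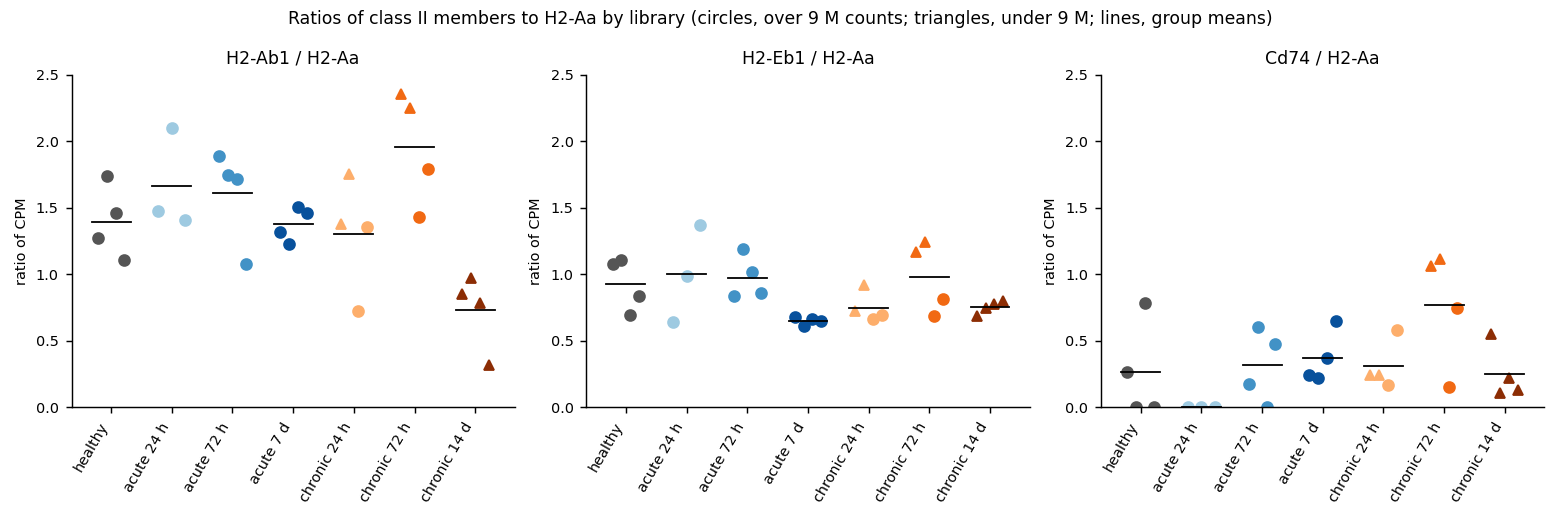
Ratios of CPM of H2-Ab1, H2-Eb1 and Cd74 to H2-Aa in every library by group, with lines at the group means. H2-Ab1 over H2-Aa is lowest at chronic 14 d (0.317 to 0.973) and highest at chronic 72 h (1.43 to 2.35), and Cd74 over H2-Aa is 0 in all 3 acute 24 h libraries.

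Some markers of every leukocyte class listed were called higher than healthy where most members were, at acute 7 d and in the chronic groups. At acute 24 h 6 members were lower, as were 12.5% of all genes. Of the leukocyte markers 1 of 5 pan-leukocyte, 2 of 10 macrophage and 0 of 9 tested dendritic cell markers were lower there. In the same comparison 4 of 5 neutrophil markers were called higher. Of the 5 Kupffer cell markers 1 was called higher and 0 lower, but their median log2 fold change was -1.40. The sum of H2-Aa, H2-Ab1 and H2-Eb1 spanned 8.95 to 959 CPM over the 27 libraries, 107-fold, while Ptprc, the CD45 gene that all leukocytes express, spanned 1.23 to 56.2 CPM. The ratio of the sum to Ptprc spanned 5.19 to 21.6, which is 4.17-fold. It was 5.19 to 7.14 at acute 72 h, 10.2 to 18.2 at acute 7 d and 12.5 to 21.6 at chronic 72 h. The ratio to the summed macrophage markers C1qa, C1qb and C1qc was wider, at 0.12 to 2.90, which is 24.2-fold. Lrat spanned 3.96-fold over the same libraries. In bulk RNA, a change in the number of cells of a type and a change in the RNA per cell cannot be told apart.

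The 5 pan-leukocyte markers (Ptprc, Coro1a, Laptm5, Cd52 and Cd53) summed to 25.5 to 53.8 CPM in healthy, 17.4 to 32.1 at acute 24 h, 48.8 to 80.5 at acute 72 h, 302 to 697 at acute 7 d, 101 to 406 at chronic 24 h, 93.5 to 318 at chronic 72 h and 136 to 203 at chronic 14 d. All 5 were called higher than healthy at acute 7 d and in the 3 chronic groups, their median log2 fold change was 0.68 at acute 72 h, and 1 was called lower at acute 24 h. They thus stood high in the same groups as the class II chains. The 10 macrophage markers summed to 157 to 479 CPM in healthy, 195 to 270 at acute 24 h, 334 to 601 at acute 72 h, 4214 to 10965 at acute 7 d, 723 to 4249 at chronic 24 h, 1028 to 2668 at chronic 72 h and 906 to 1919 at chronic 14 d. Of them 9, 9, 3 and 9 were called higher than healthy at chronic 24 h, 72 h and 14 d and acute 7 d. The markers of monocyte-derived macrophages were higher already at acute 72 h (4 of 5 called), when no member was.

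Dendritic cell and B cell markers, of the other cells that carry class II constitutively, summed to less than the 10 macrophage markers in every group. The 10 dendritic cell markers summed to 68.7 to 98.6 CPM in healthy, 44.6 to 78.7 at acute 24 h, 55.2 to 62.0 at acute 72 h and 85.5 to 134 at acute 7 d. They summed to 81.3 to 117 CPM at chronic 24 h, 57.6 to 106 at chronic 72 h and 106 to 162 at chronic 14 d, which had the highest group mean (136). Of the 9 tested 5 were called higher at acute 7 d and 4 at chronic 14 d. The 7 B cell markers summed to 0 to 5.65 CPM in healthy, 0.966 to 1.60 at acute 24 h, 23.2 to 46.0 at acute 7 d and 29.4 to 54.7 at chronic 14 d, where 6 of the 7 were called higher. The 8 T and NK cell markers summed to 1.91 to 3.81 CPM in healthy, 0.351 to 4.36 at acute 24 h, 14.9 to 30.4 at acute 7 d and 16.6 to 39.0 at chronic 14 d, and 5 of the 7 tested were called higher in each of the latter 2 groups.

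Other lists followed other courses. The 5 neutrophil markers summed to 0 to 1.90 CPM in healthy and 2.55 to 18.4 at acute 24 h, where 4 of 5 were called higher and 6 members lower, and to 7.26 to 10.7 at acute 72 h, where 3 were higher and no member was called. All 5 were higher at acute 7 d and in each chronic group. The 5 Kupffer cell markers summed to 72.7 to 335 CPM in healthy, 55.8 to 69.9 at acute 24 h and 243 to 1314 at acute 7 d. At acute 24 h 1 of them was called higher while the median log2 fold change of the list was -1.40, and 3 were called higher at acute 7 d. The 7 markers of sinusoidal endothelial cells summed to 103 to 325 CPM in healthy, 49.1 to 67.8 at acute 24 h and 25.4 to 95.7 at acute 72 h. Of these 5 were called lower at both times, with 1 higher at acute 24 h, and 4 were lower at chronic 24 h. The 6 hepatocyte markers summed to 423 to 2259 CPM in healthy and 141 to 283 at acute 24 h, and to 1370 to 2161 at acute 7 d, where 1 was called higher. The 10 stellate markers had a median log2 fold change against healthy of -0.64 at acute 7 d, where 4 were called lower. At chronic 24 h their median was -1.03, with 5 called lower and 1 higher. The part of RNA from these other cells in the class II values was not tested.

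**Figure D4:**
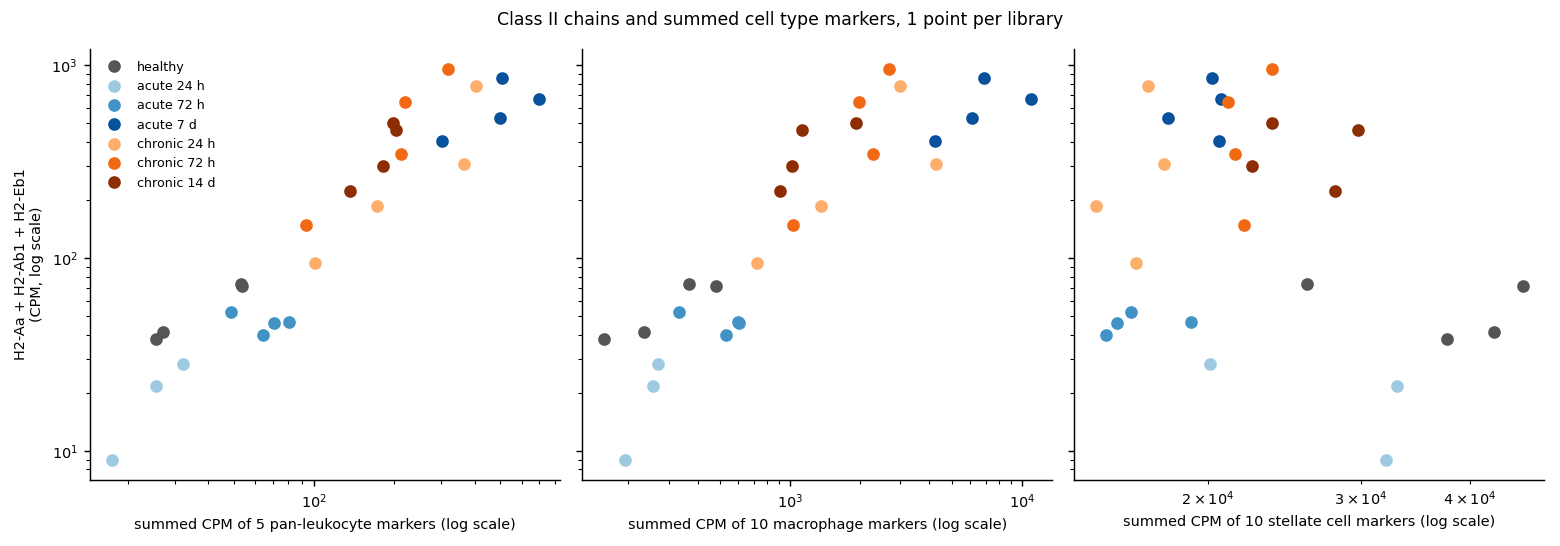
Sum of H2-Aa, H2-Ab1 and H2-Eb1 in each library against the sums of 5 pan-leukocyte, 10 macrophage and 10 stellate markers, all in CPM on log10 axes and coloured by group. Both the chains and the pan-leukocyte sum have their highest mean at acute 7 d (pan-leukocyte 302 to 697 CPM) and their lowest at acute 24 h (17.4 to 32.1 CPM). Between these the order differs. The pan-leukocyte mean is 66.1 CPM at acute 72 h and 39.9 in healthy, where the chains have 46.4 and 56.4. At chronic 24 h, 72 h and 14 d the pan-leukocyte means are 261, 210 and 180 CPM and those of the chains 343, 524 and 372. The stellate sum is highest in healthy (25969 to 46036 CPM) and lower at acute 7 d (18007 to 20736 CPM) and chronic 24 h (14869 to 17793 CPM).

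Within the chronic groups the depth classes differed in the same genes. At chronic 72 h the libraries under 9 M counts (replicates 1 and 2) lay above those over 9 M (replicates 3 and 4) in 10 of 10 members, and at chronic 24 h in 8 of 10, the exceptions being Cd74 and Cd80. The share of all genes that did so was not computed. Most members also deviated together within groups, so these counts are a description alone. H2-Aa, for example, had 84.3 to 251 CPM in the lower and 39.6 to 61.4 in the higher class at chronic 24 h, and 142 to 214 against 47.5 to 95.7 at chronic 72 h. Pan-leukocyte markers differed likewise, with 366 to 406 against 101 to 172 CPM at chronic 24 h and 218 to 318 against 93.5 to 211 at chronic 72 h. The stellate sums were close, at 17070 to 17793 against 14869 to 16542 CPM and at 21087 to 23705 against 21513 to 22027. With the libraries over 9 M alone, 3 members were called higher at chronic 24 h than healthy in place of 6, the losses being H2-Ab1 (1.26), H2-DMb1 (1.59) and H2-DMb2 (1.50), and 6 at chronic 72 h in place of 7, without Cd74 (2.89). With depth class as a term 5 were called at chronic 24 h, without H2-Ab1 (1.34), and 6 at chronic 72 h, without Cd74 (3.22). Healthy and acute libraries were all over 9 M, so the acute comparisons held no such difference.

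Genes that work beside the members were followed from a list of 8 class II loading and processing genes, of which 7 could be tested. Of these 5, 3, 2 and 4 were called higher than healthy at chronic 24 h, 72 h and 14 d and acute 7 d, 1 at acute 72 h, and at acute 24 h 1 was higher and 3 lower. Ctss, the cathepsin that cleaves the invariant chain, rose by 3.56, 3.43 and 2.21 in the chronic groups (24 h, 72 h, 14 d) and by 4.86 at acute 7 d, and stood at -0.37 at acute 24 h. Cd83, which keeps class II and Cd86 on the cell surface, rose by 2.38 at chronic 24 h, 1.99 at chronic 72 h and 2.90 at acute 7 d, and fell by 3.00 at acute 24 h (adjusted p 0.000746, edgeR). Ifi30, the lysosomal thiol reductase, was instead higher at acute 24 h (2.04, adjusted p 4.34e-05, edgeR) and acute 72 h (1.65). H2-Oa and H2-Ob, the chains of the H2-DM inhibitor, were listed at 0 throughout acute 24 h, and H2-Ob was at least 3.41-fold lower there than in healthy. H2-Ob rose by 2.81 at chronic 14 d (adjusted p 0.000371, edgeR).

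Of the 13 genes of class II transcription and interferon gamma signalling 8 were called in none of the comparisons with healthy, and the other 5 are named here. Their medians were -0.36, -0.44 and -0.16 at chronic 24 h, 72 h and 14 d. At acute 7 d 1 was higher, Irf8 (1.02, adjusted p 0.00322, edgeR), and 1 lower, Irf1 (-1.42, adjusted p 0.000357, edgeR). Irf1, an interferon-induced factor, also fell by 1.61 at chronic 24 h (adjusted p 5.41e-05, edgeR) and by 2.02 at acute 24 h (adjusted p 1.52e-05, edgeR). Rfx5, the X box factor, fell by 1.41 at acute 24 h (adjusted p 0.000593, edgeR). In the same comparison Ifngr2, a chain of the interferon gamma receptor, rose by 1.12 (adjusted p 1.08e-05, edgeR). Creb1 fell by 2.87 at chronic 72 h (adjusted p 0.0477, edgeR).

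Of 10 other costimulatory and checkpoint ligands 6 could be tested. Against healthy 3 of them were called lower and 1 higher at acute 24 h, with a median log2 fold change of -1.15. At chronic 24 h 1 was called lower and 1 higher, at acute 72 h, acute 7 d and chronic 72 h 1 was higher, and at chronic 14 d none was called. Cd276, a B7 family ligand, had a time course of its own, with log2 fold changes against healthy of -1.20 at acute 24 h (adjusted p 0.0260, edgeR), 2.43 at acute 72 h (adjusted p 4.16e-05, edgeR), 3.04 at acute 7 d, 2.85 at chronic 24 h and 2.52 at chronic 72 h, and it had risen at acute 72 h, when no member was called. Of the 10 genes of class I presentation 3 were called lower than healthy at acute 24 h and 1 each at acute 72 h, acute 7 d and chronic 24 h. Their median was -0.62 at acute 7 d, where that of the members was 3.56.

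**Figure D5:**
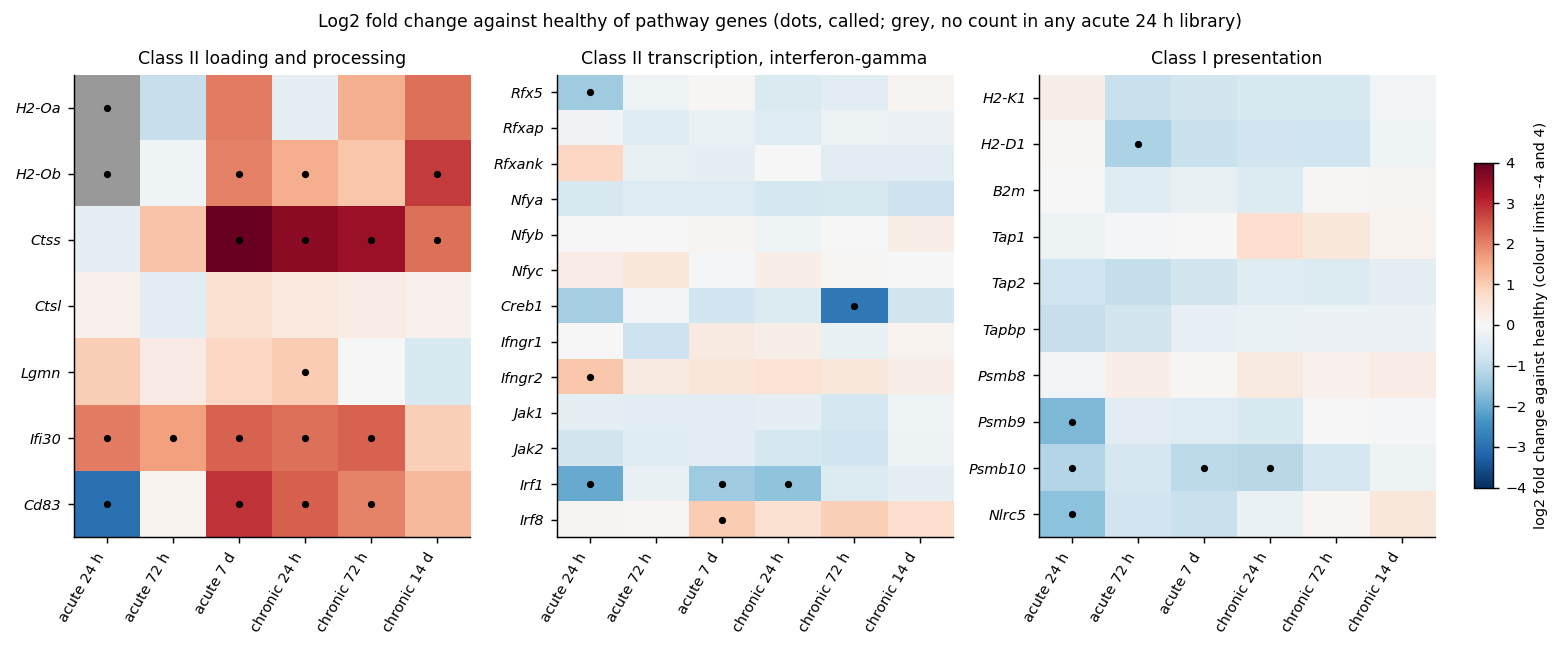
Heat maps of log2 fold change against healthy in the 6 injured groups for the tested genes of class II loading and processing, class II transcription and interferon gamma signalling, and class I presentation, with dots where called and grey where no acute 24 h library had a count. Of the 7 loading and processing genes 4 are called higher at acute 7 d, where Ctss stands at 4.86 and Cd83 at 2.90. There 1 of 13 transcription genes is called higher and 1 lower, and 1 of 10 class I genes lower. At acute 24 h 1 transcription gene is called higher and 2 lower, and 3 class I genes are lower.

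Replicates deviated from their group means together in most members. After the group means were taken away, the Pearson correlation of log2 CPM over the 27 libraries was 0.92 between H2-Aa and H2-Ab1, 0.92 between H2-Aa and H2-Eb1 and 0.90 between H2-Ab1 and H2-Eb1. Cd86 and H2-Ab1 had 0.85. Cd74 had 0.18 to 0.65 with the other members. Of 10288 genes whose log2 CPM averaged 3 or more, those most like the mean of Cd74, H2-Aa, H2-Ab1 and H2-Eb1 within groups were Selplg (0.88), Rac2 (0.84), H2-Q6 (0.83), Ptprc (0.83), Spi1 (0.83), H2-Q5 (0.82), Dok3 (0.82), Bin2 (0.82), Pld4 (0.82) and Jpt1 (0.81). Selplg, the leukocyte ligand of selectins, Rac2, Ptprc and Spi1 are known for expression in blood cells, and H2-Q6 and H2-Q5 are class I genes. With the group means left in, the correlation was 0.89 to 0.96 for 7 of the 10, but -0.07 for H2-Q6, -0.07 for H2-Q5 and 0.02 for Jpt1. Against the mean of the 3 chains without Cd74, interferon-induced GTPases stood among the nearest genes too, with 0.85 for Igtp, 0.82 for Irgm1, 0.80 for Tgtp2 and 0.80 for Tgtp1 within groups, named after their values were seen. These values describe the same 27 libraries, which also share their depth classes.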

How the data were processed

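RNA of 27 libraries in 7 groups was analysed from the table of raw counts the authors deposited, whole numbers per Ensembl gene without normalization. Per the study's methods and the submitters' processing notes, single-end reads were checked and trimmed with FastQC, aligned to GRCm38 with STAR and assembled with StringTie. Tool versions, the strand setting and how the assembly became counts are not given in the sources used here. The number of unmatched columns was 0. Symbols and positions came from GENCODE M21, which held 53274 of 53379 IDs. Promoters came from RefSeq windows on GRCm38.p6.

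In R 4.3.3 with edgeR 4.0.16 (limma 3.58.1), genes passed filterByExpr by group, TMM gave the library sizes, and all 27 libraries entered 1 robust quasi-likelihood fit with a mean per group, which was tested on simulated counts. Calls needed a Benjamini-Hochberg adjusted p below 0.05 over 18758 genes and a change above 2-fold, in 10 comparisons. Fold changes against a group without a count were bounded with 3 counts per library, which covers counting error only. Log2 CPM used a prior count of 2. Depth was 6.31 M to 13.1 M counts. The methods of the study name DESeq2, which was run as an alternative (1.42.0), beside other scalings, filters, thresholds, fits of fewer libraries, depth class as a term and the replicate number as a block. Members, lists and alternatives were chosen with earlier results of these data known. Named were the 10 members in every comparison, the genes of 15 lists and the 10 genes most like the class II genes within groups. The class II transcription list was counted without 1 gene, which is not reported here. H2-Ea-ps was added after its values were seen. Figures used Python 3.11.15, pandas 2.3.3 and matplotlib 3.10.9.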

Additional observations from a re-analysis of the deposited data

Results flagged for a closer look

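Within groups of 4 libraries, 60 sets of values (10 genes in 6 groups) were checked for a library far from the others, by Dixon's test at the 95% level, and 5 were marked. Chance marks about 1 in 20 sets of normally distributed values. A set with 1 library above 0 and the others at 0 is always marked, so that rate does not apply to the 3 marks of Cd80. Cd74 was at 100.2 CPM in chronic 14 d replicate 1, against 14.1 to 25.7 CPM in the others. H2-DMa was at 24.8 CPM in acute 7 d replicate 1, against 34.9 to 36.6. Cd80 had counts in 1 of 4 libraries in 3 groups, with 0.390 CPM in healthy replicate 2, 0.620 in acute 72 h replicate 1 and 1.18 in chronic 14 d replicate 2, and 0 in the others.

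The effect of the injury differed between the first and the repeated exposure at 24 h for 9 members, by the test of the difference in edgeR (adjusted p 3.29e-05 to 0.0157). The stated age of the mice differed between these groups too. The log2 fold changes of chronic 24 h against acute 24 h were 4.33 for H2-Aa, 4.01 for H2-Ab1, 4.07 for H2-Eb1, 2.27 for H2-DMa, 6.04 for H2-DMb1, 6.001 for H2-DMb2, 3.76 for Ciita and 4.16 for Cd86. That of Cd74 was fitted at 11.35, a value that depends on the prior count because no acute 24 h library had a count. At 72 h the effect differed for 8 members (adjusted p 0.000152 to 0.0324, edgeR), at 4.87 for Cd74, 3.24 for H2-Aa, 3.67 for H2-Ab1, 3.42 for H2-Eb1, 1.86 for H2-DMa, 3.55 for H2-DMb1, 2.97 for H2-DMb2 and 1.95 for Cd86. With depth class as a term the differences of H2-DMa and Ciita at 24 h and of Cd74, H2-DMa and Cd86 at 72 h did not pass the threshold.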

How the results depend on the processing

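No log2 fold change of a member that was called changed its direction under any alternative. Under settings other than leaving out a library, 1107 values kept their side of the threshold, 65 lost a call and 8 gained one, and without 1 library 712 kept it, 50 lost a call and 8 gained one. The counts of members called that moved by over 1.5 times were these. Without a filter on low counts, 3 were called lower at acute 24 h and 6 higher at acute 7 d against healthy. A test against a 2-fold minimum left 3 at chronic 14 d, 1 at acute 24 h and 6 at acute 7 d against healthy, and 5 at chronic 72 h against acute 72 h. With depth class as a term 0 remained at chronic 14 d against healthy and 5 at chronic 72 h against acute 72 h. The libraries over 9 M alone gave 3 at chronic 24 h against healthy and 5 at chronic 72 h against acute 72 h, and could not be used for chronic 14 d. The cause of these shifts was not tested.

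Leaving out each library in turn gave 6 to 7 members at chronic 24 h, 6 to 8 at chronic 72 h, 3 to 7 at chronic 14 d, 2 to 6 at acute 24 h, 0 to 0 at acute 72 h and 6 to 10 at acute 7 d against healthy. It gave 0 to 1 at chronic 14 d against chronic 24 h, 10 to 10 at acute 7 d against acute 24 h, 8 to 10 at chronic 24 h against acute 24 h and 6 to 9 at chronic 72 h against acute 72 h. Groups share replicate numbers, but same-numbered libraries did not deviate together: the correlations of 37 such pairs ran from -0.172 to 0.172, and in 0 of the comparisons were all above 0.1. With the replicate number as a block, 6, 6 and 5 members were called at chronic 24 h, 72 h and 14 d and 6, 0 and 9 at acute 24 h, 72 h and 7 d against healthy. Library size alone in place of TMM put the median over all genes at 0.15, 0.12, 0.10 and 0.11 at chronic 14 d, chronic 72 h, acute 72 h and acute 7 d against healthy, at 0.18 at chronic 14 d against chronic 24 h and at 0.13 at acute 7 d against acute 24 h, and left every count of members called as it was.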
